A study of Xenopus laevis with 5 samples.

Results

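The Zic genes, geminin and the Iroquois genes are regulators of the early neural ectoderm, and RNA sequencing followed them here in whole early gastrulae of Xenopus laevis, labelled stage 10.5. Gene models were chosen by name, as every L and S copy of zic1, zic2, zic4, gmnn, irx1, irx2, irx3 and irx5 in the deposited annotation, which gave 15 of 45099 models. Xenopus laevis is an allotetraploid frog, and L and S mark the copies of a gene (homeologs) on the long and the short subgenome. Embryos injected with 18 ng of a translation-blocking morpholino against MOV10, an RNA helicase that works with the small RNA silencing machinery, gave 2 libraries with the replicate numbers 2 and 3. Embryos injected with 18 ng of a control morpholino gave 3 libraries, numbered 1 to 3. Morpholinos are antisense oligomers with a modified backbone that cells do not degrade. Fertilized eggs of 2 mating pairs were used, and the sources used here do not tie a library to a pair. The labels call the libraries biological replicates and speak of 3 separate embryos collected in each condition. No MOV10 replicate 1 was analysed here. The p-values weigh the difference between the groups against the spread between these libraries. The comparison asks how RNA levels differed between early embryos injected with the MOV10 morpholino and those injected with the control morpholino.

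Zic proteins are zinc finger transcription factors that are switched on in the prospective neural ectoderm and at its border, and zic1 acts with pax3 in the formation of the neural crest. Geminin is a small protein that binds the licensing factor Cdt1 and so keeps DNA from being replicated again within a cell cycle, and in the frog embryo it also promotes neural fate and restrains early differentiation. Iroquois proteins are homeodomain transcription factors, encoded in gene clusters, that divide the neural plate into regions and act before that in the dorsal ectoderm and mesoderm of the gastrula.

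The libraries held 11347400 to 11727654 reads in genes with the MOV10 morpholino and 11592035 to 13515787 with the control morpholino. Levels are given as CPM, the reads of a gene scaled to the size of its library, and a floor of 3 reads corresponded to 0.201 to 0.284 CPM. The RNA of mov10.L itself had 349 and 275 reads in the MOV10 libraries and 105, 33 and 71 in the controls, a log2 fold change of 2.49 ± 0.40 (SE), which checks neither the labels nor the knockdown, as a translation block acts on the protein. All 20 tested models of the muscle marker list were higher in the MOV10 libraries, out of 25 models found, against 24.4% of all tested genes. Models such as tnnc1.S, tnni2.S, mylpf.L and des.1.L had 0 to 5 reads in each control. They passed the filter on low counts only through the MOV10 libraries, so for them being tested and being higher went together. The summed level of the list was 15954 and 17835 CPM with the MOV10 morpholino and 89.5 to 415 CPM in the controls. Models without a read were ryr1.S in both MOV10 libraries, and tnnc1.L, tnnc1.S, casq1.L, casq1.S and ryr1.S in all controls. Of 21 tested early gastrula markers 14 were lower, 6 did not pass and 1, the endodermal gene darmin.L, was higher. Among the lower ones, mix1.L, mix1.S, nodal.L and gs17.S had 0 to 9 reads in each MOV10 library. These passed the filter on low counts only through the controls, so for them being tested and being lower went together. Among all tested genes 17.7% were lower. Whether the groups differed in true stage and what the morpholino did to these genes cannot be told apart in this design.

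Most of these regulators had less RNA in the MOV10 libraries. Of the 14 that had enough reads to be tested, 11 were lower with the MOV10 morpholino, 1 was higher and 2 did not pass the threshold of 0.05 on the p-value adjusted over all 20049 genes tested with edgeR's quasi-likelihood test. Across all tested genes 42.1% passed, 24.4% as higher and 17.7% as lower. The median log2 fold change of the 14 copies was -1.82, against 0.08 over all tested genes, and single values ran from -3.46 for zic1.S to 1.34 for irx3.S. The libraries of the groups did not overlap for 12 of the 14, while 65.9% of all tested genes were separated in this way. All 6 Zic copies and both geminin copies fell. Among the Zic copies, zic4.S passed the filter on low counts only through the controls. The Iroquois copies were divided, with 3 lower, 1 higher and 2 not past the threshold among 6 tested. In whole embryos a lower level from fewer cells of a kind and one from less RNA per cell cannot be told apart. The muscle markers rose in the same libraries, and their part in these changes was not tested.

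**Figure D1:**
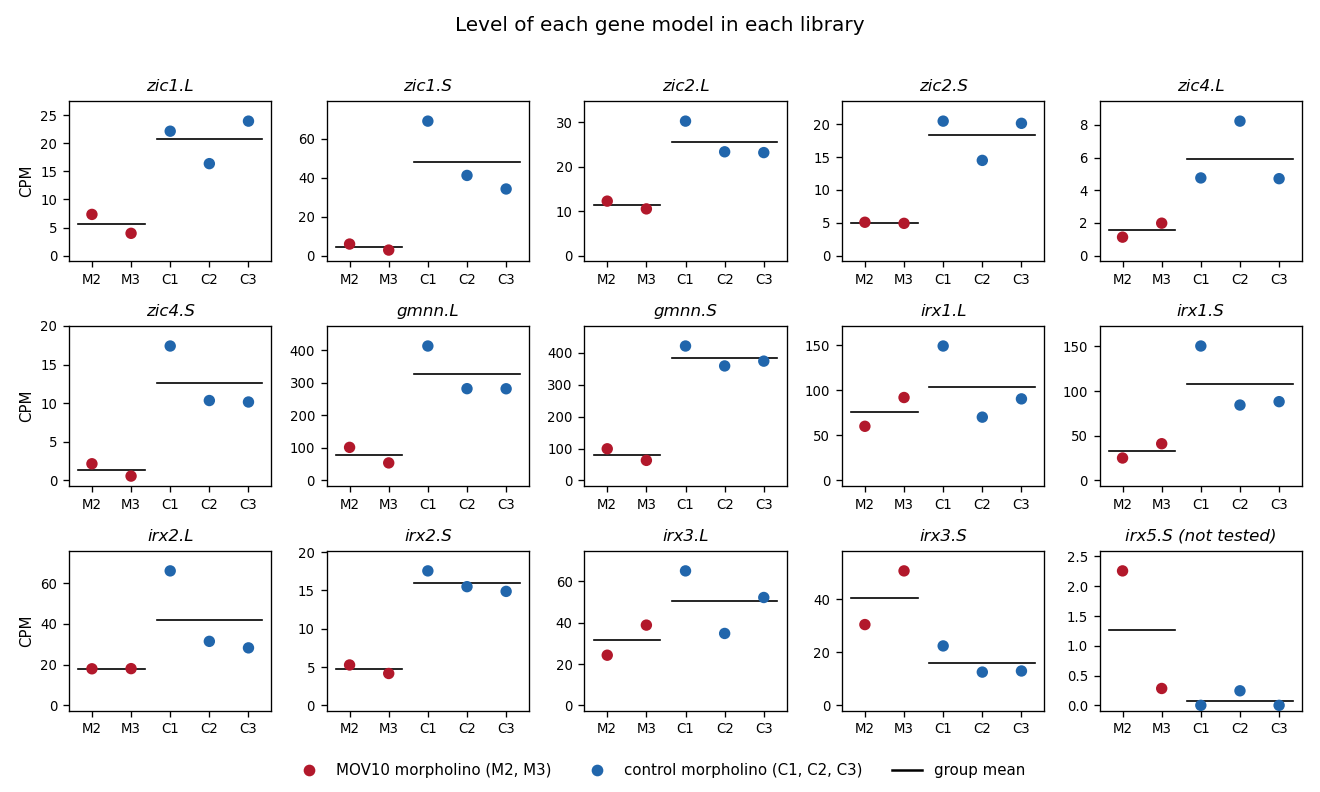
Level of each of the 15 gene models in each library, in CPM on a linear axis with its own scale in each panel, with MOV10 replicates 2 and 3 in red at the left (M2, M3), control replicates 1 to 3 in blue (C1 to C3) and a line at each group mean. The MOV10 points lie below every control for the Zic and geminin copies and above every control for irx3.S, and for irx1.L and irx3.L MOV10 replicate 3 alone falls among the controls.

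The zic1 gene lay on chromosome 5, its L copy at 119298467 to 119303280 of 5L and its S copy at 102521367 to 102526059 of 5S (Xenla9.1 build, plus strand). In the MOV10 libraries zic1.S had 5.93 and 2.83 CPM, against 69.0, 41.2 and 34.2 CPM in control replicates 1, 2 and 3. Both MOV10 libraries lay far below the lowest control, and control replicate 1 stood above the other controls. With all libraries the S copy had the largest fall of the 14 tested copies (log2 fold change -3.46 ± 0.46, SE; edgeR adjusted p = 0.000736), and its log2 fold change was -4.09 without MOV10 replicate 2, where zic4.S fell further. For zic1.L the levels were 7.34 and 3.97 CPM with the MOV10 morpholino and 22.2, 16.4 and 24.0 CPM in the controls. It fell 3.68-fold, again with no overlap between the groups (log2 fold change -1.88 ± 0.37, SE; edgeR adjusted p = 0.00468).

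The zic4 gene encodes a further Zic factor and is the neighbour of zic1. The genes stood head to head, with 11.9 kb between their models on 5L and 15.3 kb on 5S. At zic4.S (5S, 102500970 to 102506053, minus strand) the MOV10 libraries had 2.16 and 0.567 CPM and the controls 17.4, 10.4 and 10.2 CPM. The groups were separate, and the MOV10 libraries differed from each other, with 23 and 6 reads. With these reads zic4.S passed the filter on low counts only through the controls, so for it being tested and being lower went together. This copy fell 9.20-fold (log2 fold change -3.20 ± 0.60, SE; edgeR adjusted p = 0.00361), with log2 fold changes of -4.47 without MOV10 replicate 2 and -2.55 without MOV10 replicate 3. At zic4.L (5L, 119281460 to 119286528, minus strand) levels were low in every library, at 1.13 and 1.98 CPM with the MOV10 morpholino and 4.75, 8.23 and 4.71 CPM in the controls. The L copy fell 3.77-fold (log2 fold change -1.91 ± 0.54, SE; edgeR adjusted p = 0.0207), a call that ended on leaving out control replicate 2 (0.0701 as the adjusted p) or MOV10 replicate 2 (0.0870). Over 13 alternatives its adjusted p ran from 0.00972 to 0.0870. The deposited annotation pairs both zic4 copies with human ZIC1, although it names the models zic4.

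The product of zic2 restrains neuronal differentiation in the frog neural plate, and both copies of the gene fell. Reads of zic2.L (2L, 119944650 to 119949295, minus strand) came to 12.2 and 10.5 CPM in the MOV10 libraries and 30.2, 23.3 and 23.1 CPM in the controls. The MOV10 libraries were close to each other and below all controls. This copy fell 2.25-fold (log2 fold change -1.17 ± 0.28, SE; edgeR adjusted p = 0.0101), and the call ended without MOV10 replicate 3 (edgeR adjusted p = 0.0555), within a range of 0.00196 to 0.0555 over 13 alternatives. The S copy, zic2.S (2S, 102403382 to 102407777, minus strand), had 5.08 and 4.91 CPM with the MOV10 morpholino and 20.5, 14.5 and 20.2 CPM in the controls, and fell 3.67-fold (log2 fold change -1.88 ± 0.33, SE; edgeR adjusted p = 0.00251). With both copies added, zic2 averaged 16.4 ± 1.35 CPM in the MOV10 group (SD, n = 2) and 43.9 ± 6.46 CPM in the controls (SD, n = 3).

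Among their relatives, reads of irx4, the next gene of the irx1 and irx2 cluster, and of zic5 were few. The level of irx4.S was 1.32 and 3.87 CPM in the MOV10 libraries and 3.21, 3.83 and 2.4 CPM in the controls, so the groups overlapped. Copy irx4.L was not tested, with 20 and 1 reads in MOV10 replicates 2 and 3 and 2, 0 and 0 in the controls. For zic5, which lies head to head with zic2 at 13.8 kb on 2L and 10.2 kb on 2S, reads were too few for a test, with 6 and 0 for zic5.L in the MOV10 libraries and 8, 4 and 3 in the controls. At zic5.S there were 3 and 2 reads in the MOV10 libraries and 14, 2 and 2 in the controls.

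Geminin RNA was lower in both copies. Copy gmnn.L (6L, 95069741 to 95075256, plus strand) had 102 and 54.1 CPM in the MOV10 libraries and 414, 282 and 282 CPM in the controls. At gmnn.S (6S, 75152997 to 75158120, minus strand) the levels were 99.2 and 62.9 CPM in the MOV10 libraries and 421, 358 and 373 CPM in the controls. In both copies MOV10 replicate 2 was above MOV10 replicate 3, and both lay well below the lowest control. The L copy fell 4.18-fold (log2 fold change -2.06 ± 0.32, SE; edgeR adjusted p = 0.00157) and the S copy 4.74-fold (log2 fold change -2.25 ± 0.25, SE; edgeR adjusted p = 0.000322). Added together, the copies gave 159 ± 59.4 CPM in the MOV10 group (SD, n = 2) and 710 ± 108 CPM in the controls (SD, n = 3).

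Genes of replication licensing, the process geminin limits, were read from a list of origin recognition, loading and helicase genes. Of 23 tested models 9 were lower, 2 higher and 12 not past the threshold, with a median log2 fold change of -0.51. The share called was 47.8%, near the 42.1% of all tested genes. In direction the list differed, as more models were lower than higher, while 17.7% of all tested genes were lower and 24.4% higher. That lean was not tested. The lower ones included orc6.L, an origin recognition subunit, which fell 3.40-fold to 17.4 and 22.0 CPM in the MOV10 libraries, against 67.9, 57.8 and 75.4 CPM in the controls (edgeR adjusted p = 0.000985). The kinase regulator gene dbf4.L fell 2.45-fold (edgeR adjusted p = 0.00106). Origin recognition genes orc5.L and orc2.S moved the other way, with orc5.L at 25.6 and 27.3 CPM in the MOV10 libraries and 0.603, 0.896 and 1.32 CPM in the controls, a 28.1-fold rise (edgeR adjusted p = 8.37e-05), and orc2.S 2.82-fold higher (edgeR adjusted p = 0.00154). The geminin target cdt1, named after its values were seen, was at 9.31 and 8.03 CPM in its L copy in the MOV10 libraries and at 52.4, 37.2 and 14.5 CPM in the controls, a fall (edgeR adjusted p = 0.0133) that did not pass without MOV10 replicate 3 (edgeR adjusted p = 0.0526). Its S copy overlapped between the groups, with 17.9 and 11.6 CPM in the MOV10 libraries and 20.3, 6.03 and 9.25 CPM in the controls, and did not pass (log2 fold change 0.31 ± 0.50, SE).

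**Figure D2:**
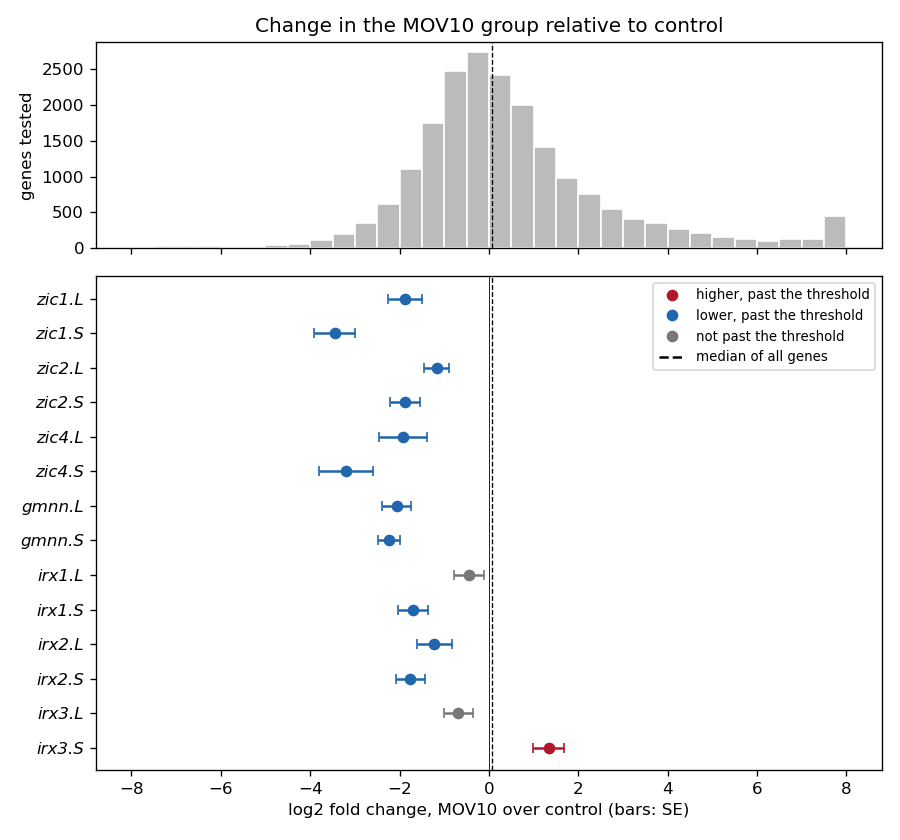
Log2 fold change of the 14 tested copies in the MOV10 group over control (points, with SE bars; blue lower, red higher, grey not past the threshold) under the spread of the same value over all 20049 tested genes (bars; the end bins also hold values beyond the axis). The dashed line marks the median of all genes at 0.08, and irx3.S is the single copy to the right of it.

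Of the Iroquois genes, irx1 and irx2 lay in a cluster on chromosome 6, head to head at 516 kb on 6L and 764 kb on 6S. In irx1 the copies parted. The S copy (6S, 53575553 to 53580506, minus strand) had 25.1 and 41.1 CPM in the MOV10 libraries and 150, 84.4 and 88.1 CPM in the controls, with no overlap, and fell 3.25-fold (log2 fold change -1.70 ± 0.34, SE; edgeR adjusted p = 0.00501). The L copy (6L, 66268692 to 66273734, plus strand) had 60.1 and 92.0 CPM in the MOV10 libraries and 149, 70.3 and 90.5 CPM in the controls. MOV10 replicate 3 lay above control replicates 2 and 3, and irx1.L did not pass (log2 fold change -0.44 ± 0.34, SE; edgeR adjusted p = 0.329).

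Both copies of irx2 fell. At irx2.S (6S, 54344229 to 54347944, plus strand) the levels were 5.27 and 4.16 CPM with the MOV10 morpholino and 17.5, 15.5 and 14.9 CPM in the controls, a 3.38-fold fall with little spread within either group (log2 fold change -1.76 ± 0.32, SE; edgeR adjusted p = 0.00326). At irx2.L (6L, 65747040 to 65752414, minus strand) the MOV10 libraries had 18.0 CPM each and the controls 66.1, 31.5 and 28.3 CPM. The groups were separate, with control replicate 1 far above the other controls, and the fall was 2.33-fold (log2 fold change -1.22 ± 0.39, SE; edgeR adjusted p = 0.0352). That call was the least stable of the members. Leaving out control replicate 1 gave -0.73 on the log2 scale with an adjusted p of 0.0774, and leaving out MOV10 replicate 2 or 3 gave an adjusted p of 0.106 or 0.0984. Over 13 alternatives the adjusted p ran from 0.0115 to 0.106.

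The irx3 gene encodes another regulator of neural plate regions, and it was the one pair whose copies had fold changes of opposite sign. Copy irx3.S (4S, 24064059 to 24067882, minus strand) had 30.5 and 50.7 CPM in the MOV10 libraries and 22.4, 12.6 and 13.0 CPM in the controls. Both MOV10 libraries were above every control, and irx3.S rose 2.54-fold (log2 fold change 1.34 ± 0.35, SE; edgeR adjusted p = 0.0145). Without control replicate 3 the edgeR adjusted p was 0.0538, and without MOV10 replicate 3 it was 0.114 with a log2 fold change of 0.92, within a range of 0.00212 to 0.114 over 13 alternatives. Copy irx3.L (4L, 31935089 to 31939461, minus strand) had 24.3 and 38.8 CPM in the MOV10 libraries and 65.1, 34.8 and 52.2 CPM in the controls. One MOV10 library lay above the lowest control, and irx3.L did not pass (log2 fold change -0.68 ± 0.33, SE; edgeR adjusted p = 0.128). Added together, the copies gave 72.2 ± 24.6 CPM in the MOV10 group (SD, n = 2) and 66.7 ± 20.1 CPM in the controls (SD, n = 3), which overlapped. The deposited annotation pairs both irx3 copies with human IRX1.

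The remaining Iroquois member, irx5.S (4S, 24645966 to 24650295, plus strand), 578 kb from irx3.S, did not pass the filter on low counts. It had 24 and 3 reads in the MOV10 libraries and 0, 3 and 0 in the controls. Scaled to library size, the MOV10 to control ratio was 16.7, with an exact 95% counting interval of 5.13 to 85.9. The reads came mostly from MOV10 replicate 2, and without it the ratio was 3.72 (0.497 to 27.7). A further model named irx5.1.L, which the choice by name leaves out, had 11 and 1 reads in the MOV10 libraries and 0, 3 and 0 in the controls.

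Within the control group, replicate 1 was the highest for 12 of the 14 tested copies, and for 33.1% of all tested genes. Within the MOV10 group the members varied in both directions, and replicate 2 was above replicate 3 for 8 copies, among them both geminin copies and both copies of zic1 and zic2, while replicate 3 was above replicate 2 for 6, among them both copies of irx1 and irx3.

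How each gene's reads were divided between its copies was then compared. The share on the L copy was taken for 7 genes, since irx5 had a single model, and it depends on the length and mappability of each copy, so only its difference between groups is read. For irx3 the L share was 44.3 and 43.4% in the MOV10 libraries and 74.4, 73.5 and 80.1% in the controls, with exact 95% intervals (Clopper-Pearson) that spanned 40.2 to 48.5% over the MOV10 libraries. The share was thus lower in both MOV10 libraries than in any control. For irx1 it was 70.5 and 69.1% in the MOV10 libraries and 49.8, 45.4 and 50.7% in the controls. For zic1 it was 55.3 and 58.3% in the MOV10 libraries and 24.3, 28.5 and 41.2% in the controls, and for zic2 70.7 and 68.1% in the MOV10 libraries and 59.6, 61.6 and 53.4% in the controls. In these 4 of the 7 genes the groups did not overlap, and 54.2% of 5249 homeolog pairs with reads in every library were separated in this way.

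Geminin showed little of this, with L shares of 50.7 and 46.2% in the MOV10 libraries and 49.6, 44.1 and 43.0% in the controls. The shares of irx2, at 77.3 and 81.3% in the MOV10 libraries and 79.0, 67.0 and 65.5% in the controls, overlapped as well. In zic4 the MOV10 libraries disagreed, at 34.3% (19.1 to 52.2%) and 77.8% (57.7 to 91.4%), with 27 reads of the pair in the shallower library. An exact two-sided permutation test over the 10 ways to assign the libraries cannot give a p below 0.1, which irx3, irx1, zic1 and zic2 reached (0.175 after Benjamini-Hochberg adjustment over 7 pairs).

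**Figure D3:**
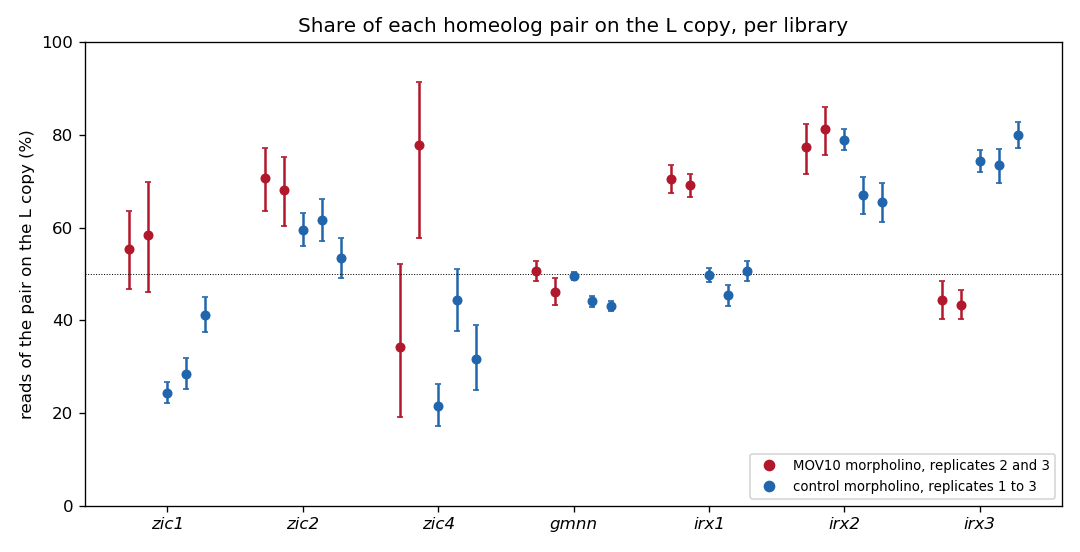
Share of the reads of each homeolog pair that fell on the L copy, in percent, in each library, with exact 95% binomial intervals that cover counting error only (MOV10 replicates 2 and 3 in red, left in each gene; control replicates 1 to 3 in blue). The MOV10 points lie below the controls for irx3 and above them for zic1, zic2 and irx1.

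A test of the difference between the copies' fold changes, added after the data were seen, was fitted with edgeR over 5335 homeolog pairs with the library as a block. It passed for 3 of the 7 pairs, and 23.7% of all tested pairs passed. In irx3 the log2 fold change of L minus that of S was -2.03 ± 0.29 (SE; edgeR adjusted p = 0.00243), in irx1 it was 1.29 ± 0.21 (SE; edgeR adjusted p = 0.00357) and in zic1 it was 1.55 ± 0.43 (SE; edgeR adjusted p = 0.0323). The difference was positive, with L falling less than S, in 6 of the 7 pairs, against 50.5% of all tested pairs. Past the threshold it was positive in 2 of the 3 member pairs, and over all pairs past it 643 were positive and 624 negative. In size irx3 exceeded the median of all pairs, 0.89, and ranked 1031 of 5335. The values of irx3 and irx1 stayed past the threshold in all 6 alternatives, with edgeR adjusted p-values up to 0.0216 and 0.0258. The value of zic1 did not pass on leaving out control replicate 1 (adjusted p = 0.0949), control replicate 2 (0.0749), MOV10 replicate 2 (0.119) or MOV10 replicate 3 (0.126), all by edgeR. Geminin had the smallest difference of the 7, at 0.17 ± 0.18 (SE; edgeR adjusted p = 0.525).

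**Figure D4:**
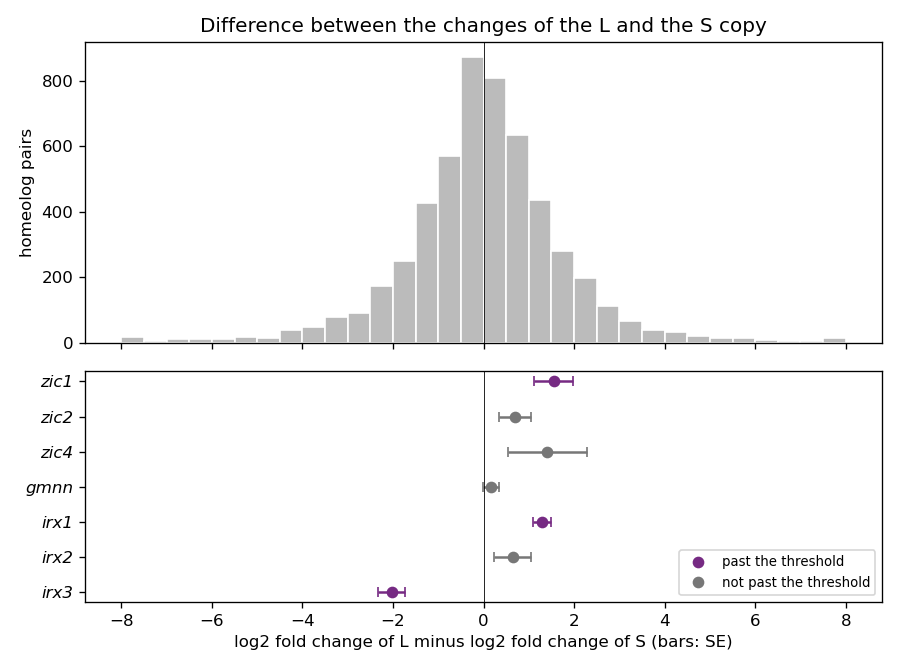
Difference between the log2 fold changes of the L and the S copy over 5335 homeolog pairs (grey bars; the end bins also hold values beyond the axis) and for the 7 pairs of the Zic, geminin and Iroquois genes (points with SE bars; purple past the threshold, grey not). The point of irx3 lies at -2.03 and the other points lie right of 0.

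The genes that surround these regulators in neural induction were described from lists, whose members were chosen with earlier results of these data known. Among early neural ectoderm transcription factors 12 of 25 tested models fell, 2 rose and 11 did not pass, and the median log2 fold change was -1.09. The forkhead gene foxd4l1.1.S, which acts upstream of geminin and zic2 in the frog, fell 5.65-fold, to 5.08 and 4.06 CPM in the MOV10 libraries, against 18.9, 33.8 and 24.9 CPM in the controls (edgeR adjusted p = 0.00108). Its relative foxd4l1.2.L had 1 read in each MOV10 library and 152 reads in the controls, a control to MOV10 ratio of 41.0 (95% counting interval 11.2 to 342). The Sox gene sox15.L had a log2 fold change of -1.58 (edgeR adjusted p = 0.00192). The Hairy-related gene hes3.L had one of -2.58 (edgeR adjusted p = 0.00436), which was -3.63 without MOV10 replicate 2 and -1.99 without MOV10 replicate 3. The share called was 56.0%, against 42.1% of all tested genes, of which 24.4% were higher and 17.7% lower. That difference was not tested, and without control replicate 2 the models that fell were 7.

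Genes on the list of the neural plate border, where zic1 is active, also fell more often than they rose. Of 21 models tested in edgeR 11 were lower, 0 higher and 10 not past the threshold, with a median log2 fold change of -1.45. The lower models were all copies of msx1, dlx3, dlx5, dlx6, tfap2a, tfap2c and hes4, so the count does not cover the whole list. The share called was 52.4% of this list and 77.8% of the list of inducers and antagonists, against 42.1% of all tested genes. Of all tested genes 24.4% were higher and 17.7% lower, and the departure of the lists from this was not tested. By DESeq2 1 of the border models was higher, and without control replicate 1 edgeR called 2 higher. The epidermal and border factor gene tfap2a.L stood at 48.3 and 33.3 CPM in the MOV10 libraries and at 244, 222 and 271 CPM in the controls, with clear separation, and fell 6.02-fold (edgeR adjusted p = 1.60e-04). The homeobox genes msx1.S, dlx5.S and dlx5.L fell 5.37-fold, 4.87-fold and 4.16-fold. Neither copy of pax3, with which zic1 acts, passed the threshold, and both overlapped between the groups. Their log2 fold changes were -0.22 for pax3.L and -0.70 for pax3.S. The list of inducers and bone morphogenetic protein (BMP) antagonists is mixed, as it also holds gsc, frzb, szl and bambi. Of its 18 tested models 12 fell, 2 rose and 4 did not pass, with a median log2 fold change of -1.91. Copies of gsc, frzb, szl and bambi were among those that fell, so the count is not one of neural inducing signals alone. Chordin gene chrd.1.L had 21.0 and 18.5 CPM in the MOV10 libraries and 318, 243 and 186 CPM in the controls. The Cerberus gene cer1.S had 7.15 and 9.26 CPM in the MOV10 libraries and 417, 195 and 230 CPM in the controls. For bambi.S, which encodes a BMP pseudoreceptor, the levels were 87.3 and 86.5 CPM in the MOV10 libraries and 323, 362 and 407 CPM in the controls. In all of these the groups lay far apart, and bambi.L fell 3.19-fold.

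In the neurogenesis cascade, which follows the neural plate regulators in development, 8 of 21 tested models rose, 1 fell and 12 did not pass. No tested neurog copy passed. The log2 fold changes were 0.42 for neurog1.L, 0.52 for neurog2.L, -1.55 for neurog2.S, -1.02 for neurog3.L and -2.96 for neurog3.S. The share called was 42.9%, near the 42.1% of all tested genes, and the median log2 fold change was 0.53. Of all tested genes 24.4% were higher and 17.7% lower. Of the models that rose, atoh1.L, atoh1.S, ebf2.L, ebf2.S and ebf3.S had at most 11 reads in any control. They passed the filter on low counts only through the MOV10 libraries, so for them being tested and being higher went together. The counts of this list therefore cannot show a lean to higher models. The other models that rose were hes1.L, hes1.S and notch1.L. The helix-loop-helix gene ebf2.L had 249 and 196 reads in the MOV10 libraries and 0, 0 and 1 in the controls, a ratio of 825 (95% counting interval 147 to 32650) that rests on 1 control read. It was 511 without control replicate 1, and without control replicate 3 the controls had 0 reads and the interval began at 154. Its S copy ebf2.S rose 20.6-fold (log2 fold change 4.37, and 5.20 without control replicate 3). The Notch target gene hes1 rose in both copies, hes1.S to 366 and 241 CPM, against 37.6, 34.9 and 38.2 CPM in the controls (8.21-fold), and hes1.L 3.01-fold.

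**Figure D5:**
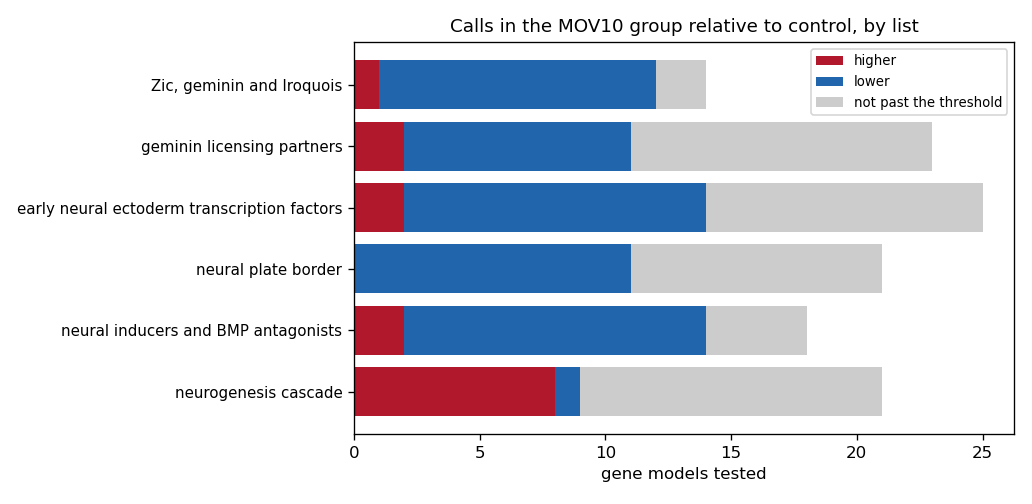
Number of tested gene models that were higher (red), lower (blue) or not past the threshold (grey) in the MOV10 group over control, for the Zic, geminin and Iroquois copies and for 5 lists of related genes. Lower models outnumber higher ones in every row but the neurogenesis cascade, with 8 higher and 1 lower. Among those 8, the atoh1 and ebf2 copies and ebf3.S passed the filter on low counts only through the MOV10 libraries.

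Marker lists of other tissues and of the early gastrula were counted beside these genes, and their part in the changes was not tested. Of all tested genes 42.1% were called, 24.4% as higher and 17.7% as lower. The share called was 25% for neuron, 18.2% for neural crest and 42.9% for pronephros and heart markers. The neuron and neural crest shares were thus below that of all genes, and the pronephros and heart share was near it. For multiciliated cell markers the share was 63.6% and for cement gland markers 100%. Of 8 tested neuron markers 1 rose and 1 fell, and the list summed to 72.7 and 54.3 CPM in the MOV10 libraries and 35.9 to 52.3 CPM in the controls, with elavl4.S and snap25.S at 0 in every library. Neural crest markers summed to 58.0 and 52.7 CPM in the MOV10 libraries and 34.7 to 44.4 CPM in the controls, with 2 of 11 higher and the crest factor gene sox10 without a control read in either copy. Multiciliated cell markers had 7 of 11 higher and summed to 314 and 297 CPM in the MOV10 libraries, against 43.8 to 118 CPM in the controls. None was at 0 in a whole group. Those 7 were models of dnai1, tekt1, tekt2 and spag6, and the foxj1 and ccno copies did not pass. The log2 fold changes of the latter were -0.25 for foxj1.L, -0.43 for foxj1.S, -0.34 for ccno.L and 0.47 for ccno.S. All 5 cement gland models were higher, at 541 and 150 CPM in sum in the MOV10 libraries and 40.9 to 85.3 CPM in the controls, and 1 of them without MOV10 replicate 2. For pronephros and heart markers 2 of 7 rose and 1 fell, with sums of 23.6 and 48.9 CPM in the MOV10 libraries and 27.4 to 36.8 CPM in the controls, and 7 of 16 models at 0 in all controls. Over 13 alternatives the higher models numbered 0 to 2 for neurons, 1 to 3 for neural crest and 0 to 3 for pronephros and heart. Early gastrula markers summed to 1480 and 3287 CPM in the MOV10 libraries and 1950 to 2447 CPM in the controls, most of it from darmin.L in the MOV10 libraries, at 1185 and 2974 CPM. Their models sia1.S and sia2.L were at 0 in all controls, and sia1.L, sia1.S and foxh1.S in both MOV10 libraries.

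The authors' deposited table lists 14 of the 15 models and leaves out irx5.S. A false discovery rate under 0.05 is given there, in the authors' deposited table, to 11 of them, and irx2.L has 0.0744. Between the authors' deposited table and the fit used here the log2 fold changes of these models were at most 0.000946 apart.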

How the data were processed

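RNA was sequenced from 5 libraries of whole embryos. Per the labels' protocols, TRIZOL served to take total RNA, and the TruSeq library kit keeps the strand. STAR 2.5.2a, edgeR 3.15.2, bcl2fastq 2.17.1.14 and FastQC 0.11.4 are named, with no role, per the submitters' processing notes. The deposited files hold raw read counts per gene in STAR's layout, and the reverse-strand column was used, which held 94.9 to 100% of the stranded reads of each member. In that layout a read counts only where it maps to a single place, so reads shared by L and S copies are missing from both, and each copy's value is uncertain to that extent. Summary lines that name no gene were left out (unmapped 29.8 to 40.4%, mapping to several places 2.02 to 5.53%, outside features 48.6 to 57.1% of reads). Gene models are those of Xenbase on Xenla9.1, per the legend of the deposited annotation, whose positions were used as given. In the authors' deposited comparison, log2 columns hold fold changes and CPM per library, a signed fold change was treated as a score, and the test behind its p-values is not given in the sources used here.

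For the tests, edgeR 4.0.16 ran under R 4.3.3. Its filterByExpr (minimum count 10) kept 20049 genes, libraries were TMM scaled, and groups were compared with glmQLFit and glmQLFTest (two-sided, group as the only term) with Benjamini-Hochberg adjustment over all of them. A gene with few reads in a group could pass filterByExpr through the other group alone, and being tested and being called then go together. This holds, for example, for fstl1.L, sox9.L, pitx1.L and pax2.L among the higher models and for mix1.S, foxd4l1.2.L and zic4.S among the lower ones. The SE is the size of the log2 fold change over the square root of F. DESeq2 1.42.0 served as an alternative. Intervals and floors cover counting error only, since reads are not independent molecules. The number of embryos per library is not given in the sources used here.

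Members, gene lists, marker lists and tests were chosen with earlier results of these data known. The text names every copy of the 8 members, from each of 5 gene lists the 4 called models, or fewer, of lowest adjusted p, and the 3 tested genes with the nearest profile to zic2, gmnn and irx3, apart from items that are not reported here. cdt1, mov10.L, irx5.1.L, irx4, zic5, darmin.L, pax3, gsc, frzb, szl and the marker models at 0 were named after their values were seen. So were notch1.L, the neurog copies, dlx3, dlx6, hes4, tfap2c and the multiciliated cell models. The same holds for the models named for the group through which they passed the filter. The 7 marker lists were summed. No transcript lengths and no sequences were used, so levels are not compared between genes.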

Additional observations from a re-analysis of the deposited data

How the results depend on the processing

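Of 182 values of the 14 tested copies under 13 alternatives each, 172 kept their direction and their side of the threshold, 10 kept the direction only and 0 reversed. Against a 1.5-fold change (glmTreat), irx2.L had a log2 fold change of -1.22 (edgeR adjusted p = 0.0882). Leaving out each library in turn gave log2 fold changes of -1.44 to -0.73 for irx2.L, -2.38 to -1.57 for zic4.L, -1.29 to -1.03 for zic2.L and 0.92 to 1.67 for irx3.S, and 9 to 11 lower and 0 to 1 higher copies. For cdt1.S it gave -0.04 to 0.95, so its sign turned without control replicate 2 (-0.00543) and without MOV10 replicate 2 (-0.0433). All 49 alternative values of the L share differences moved by less than the larger SD within a group. Leaving out a library cannot move a difference further than that, so this does not show stability. It gave differences (MOV10 minus control) of -33.4 to -30.1 percentage points for irx3, 19.6 to 22.2 for irx1 and 22.0 to 30.4 for zic1. For zic2 they were 8.77 to 12.9 and for zic4 1.81 to 45.3. Homeolog pairs past the threshold were 739 without MOV10 replicate 2 and 706 without MOV10 replicate 3, against 1267 with all libraries. Total gene counts as the scale moved the median of all genes by -0.20 (log2) and changed none of the 14 calls, while over all genes 4358 were then higher and 4357 lower, against 4899 higher and 3544 lower. With the replicate number as a block, 4118 genes were higher and 3098 lower, and 1 member copy was higher and 10 lower, with irx2.L at -0.73 (edgeR adjusted p = 0.0777). Same-numbered libraries deviated together by a correlation across genes of 0.0864 for number 2 and 0.0167 for number 3. With only 2 MOV10 libraries, each deviation from their mean mirrors the other. These values therefore cannot decide whether the numbers mark pairs, and the main fit did not take them as pairs. Low read numbers limited what could be tested for zic4, zic5, irx4 and irx5.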

Other observations

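Among 15685 other tested genes with a symbol, those whose profile over the 5 libraries was nearest to that of a member were found by the root mean square difference of log2 CPM, each centred on its own mean. The copies of each member were added before matching. Near zic2 lay chuk.S (0.0454) and nedd4.L (0.0462). The level of chuk.S, a kinase gene of NF-kappaB signalling, was 3.58 and 3.40 CPM in the MOV10 libraries and 11.2, 8.88 and 9.91 CPM in the controls. Nearest to geminin were ubr7.S (0.0442), mettl9.L (0.0805) and b4galt6.L (0.0925), with ubr7.S at 12.2 and 6.90 CPM in the MOV10 libraries and 48.0, 38.4 and 39.2 CPM in the controls. For irx3 the summed copies averaged 72.2 CPM in the MOV10 group and 66.7 CPM in the controls, while the copies' log2 fold changes had opposite signs. Genes nearest to this sum need not resemble either copy. They were ildr1.L (0.0599), slc31a2.S (0.0610) and phldb1.S (0.0620). The level of ildr1.L was 7.24 and 13.5 CPM in the MOV10 libraries and 13.2, 6.76 and 9.0 CPM in the controls.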
